A study of Mus musculus with 16 samples.

Results

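The genes described here are the potassium channel genes of the mouse array, taken as every gene whose symbol in the array files starts with Kcn and a family letter, with 1 gene of that pattern not analysed here. Of 86 such genes on 126 probes, 74 were kept, among 23309 genes tested in all. A gene was kept where, in 1 group or more, a share of 0.5 or more of the samples had a probe that the scanner software marked as well above background. The kept genes were 31 voltage-gated pore subunits, 10 pore subunits of the K2P (tandem pore) family, 10 inward rectifiers, 8 calcium- or sodium-activated pore subunits, 14 accessory subunits and the noncoding transcript Kcnq1ot1. Among the 12 genes not kept were Kcna4, Kcna5, Kcne2, Kcnh5, Kcnj1, Kcnj3, Kcnj10, Kcnk16, Kcnmb4, Kcns2 and Kcnv2.

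The study sorted cells from the livers of c129/S3 mice on a Purina 5015 diet by the antigen bound by the antibody MIC1-1C3 (M) and by CD133, and set cells positive for both against cells negative for both. Untreated livers gave 4 samples of M+133+ and 2 of M-133- cells, and livers of DDC-fed mice gave 4 samples of each. For the DDC groups, 0.1% of the diet by weight was DDC (3,5-diethoxycarbonyl-1,4-dihydrocollidine), an inhibitor of heme synthesis that causes duct injury and a ductular reaction, for 2 weeks. All cells came from enzymatic digestion of the liver and flow sorting, and M-133- cells are a mixture defined only by the absence of both antigens. The mice's age is not given in the labels. The series' design text calls the samples biological replicates without saying whether 1 mouse or a pool gave each, so the p-values measure the spread between these samples.

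Potassium channels let potassium leave or enter a cell down its electrochemical gradient and so set the membrane voltage. In fluid-secreting epithelia such as bile ducts, potassium leaving through the basolateral membrane keeps the cell interior negative, which drives chloride out through apical channels such as Cftr and Ano1. Calcium-activated channels open when a hormone or ATP raises cell calcium, channels of Kcnq1 with the small subunit Kcne3 stay open at rest, and K2P channels carry background currents.

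The upstream sequences of the 4 members that passed the test as higher in M+133+ cells in both treatments are shown first. Other members, Kcne3 among them, had that direction in both treatments without passing in both. Each is the 250 bases before the gene start in RefSeq's table for build GRCm38.p6, read 5′ to 3′ on the gene's strand, with matches to the GC box (GGGCGG, either strand) in capitals. The positions are chr8:125994852-125995101 on the plus strand for Kcnk1, chr14:20181783-20182032 on the minus strand for Kcnk5, chr14:24004206-24004455 on the minus strand for Kcnma1 and chr7:24370013-24370262 on the plus strand for Kcnn4.
Kcnk1: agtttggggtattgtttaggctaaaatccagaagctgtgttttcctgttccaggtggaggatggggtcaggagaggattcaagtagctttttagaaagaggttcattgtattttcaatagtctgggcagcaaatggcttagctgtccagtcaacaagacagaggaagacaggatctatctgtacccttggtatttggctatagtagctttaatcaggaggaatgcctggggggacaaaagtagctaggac
Kcnk5: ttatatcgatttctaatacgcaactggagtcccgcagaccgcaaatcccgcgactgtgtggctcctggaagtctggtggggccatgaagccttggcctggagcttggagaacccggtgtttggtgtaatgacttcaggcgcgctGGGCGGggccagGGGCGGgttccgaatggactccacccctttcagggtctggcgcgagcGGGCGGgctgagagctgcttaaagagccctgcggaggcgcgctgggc
Kcnma1: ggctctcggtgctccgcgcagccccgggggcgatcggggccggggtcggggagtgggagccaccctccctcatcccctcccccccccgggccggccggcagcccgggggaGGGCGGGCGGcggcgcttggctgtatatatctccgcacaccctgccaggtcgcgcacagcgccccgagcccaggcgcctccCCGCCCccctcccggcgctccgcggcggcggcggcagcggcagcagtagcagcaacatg
Kcnn4: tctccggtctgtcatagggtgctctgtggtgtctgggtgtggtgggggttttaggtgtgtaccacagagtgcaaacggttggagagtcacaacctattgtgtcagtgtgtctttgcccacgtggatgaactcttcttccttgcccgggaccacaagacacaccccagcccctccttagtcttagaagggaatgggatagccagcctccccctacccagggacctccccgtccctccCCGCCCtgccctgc

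The 4 windows differed in composition. The GC box was found 3 times in the Kcnk5 window, 3 times in that of Kcnma1 (of which a pair overlap), 1 time in that of Kcnn4 and not in that of Kcnk1, and 32.7% of all 32851 windows of this length held it. The windows held 0 (Kcnk1), 19 (Kcnk5), 31 (Kcnma1) and 6 (Kcnn4) CpG dinucleotides, against a median of 6 over all windows, so the Kcnk1 window had none of these sites and the Kcnma1 window was rich in them. None of the 4 held a TATA box (TATAAA, in 12.4% of all windows), an AP-1 motif (TGANTCA, 6.75%) or a grainyhead motif (AACCNGTT, 1.79%), each searched on both strands. RefSeq's table held a window for 11 of the 12 members that passed a test here, the exception being Kcnq1.

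Levels are log2 processed signals minus the 75th percentile of the same array, so 0 is the brightness below which 75% of that array's probes lie. That percentile was 602.8 to 2732.2 intensity units over the 16 arrays, and on each array 60.3% to 77.3% of probes were marked well above background. Prom1, which encodes CD133, was at 0.81 to 2.23 in the 8 M+133+ samples and at -8.63 to -3.52 in the 6 M-133- samples. The mean of 8 bile duct markers, among them Krt7, Krt19, Epcam, Spp1, Sox9, Cldn7 and Tspan8, was 4.04 to 6.18 in M+133+ samples, -4.16 to -3.21 in M-133- untreated and -1.92 to 0.19 in M-133- DDC samples. The mean of 8 hepatocyte markers was -2.72 to 0.77 in M+133+ and 3.88 to 5.04 in M-133- samples, although Alb itself was at 5.54 to 6.76 and at 6.22 to 8.38. Of 8 endothelial markers 7 were lower in M+133+ cells in each treatment, and of 8 stellate cell, fibroblast and pericyte markers 3 were lower untreated and 8 after DDC. The stellate list mean was 0.65 and 0.85 in the M-133- untreated samples against 3.28 to 4.54 in the M-133- DDC samples. Differences between such sorted bulk samples cannot tell fewer cells of a type from less RNA per cell, and the part that the makeup of M-133- cells plays in any result was not tested.

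Potassium channel genes differed between the sorts about as often as other genes. In untreated livers 6 of 74 members passed the test (limma, adjusted p under 0.05 over all genes), 4 of them higher and 2 lower in M+133+ cells, a share of 8.11% against a background of 8.79% of all genes called (3.63% higher and 5.16% lower). After DDC 11 members passed, 9 higher and 2 lower, a share of 14.9% against 12.9% of all genes (6.44% higher and 6.48% lower). The median difference between M+133+ and M-133- over the 74 members was -0.24 in untreated livers (-0.07 over all genes) and 0.78 after DDC (0.31 over all genes), but with quantile normalization the DDC medians were -0.07 and -0.05. Kept through 1 group alone were 9 members, and Kcnh7 was the 1 of them that passed a test, in a comparison of the group through which it was kept, so its count among the 9 higher genes after DDC is partly set by the filter. Kcnk1 and Kcnma1 were kept through the M+133+ groups alone, and Kcns3 through the M-133- groups alone. Each was higher in the sort through which it was kept, so the filter also partly set their calls. The map of the members shows a small number of rows with strong contrasts among many that vary little with the groups.

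**Figure D1:**
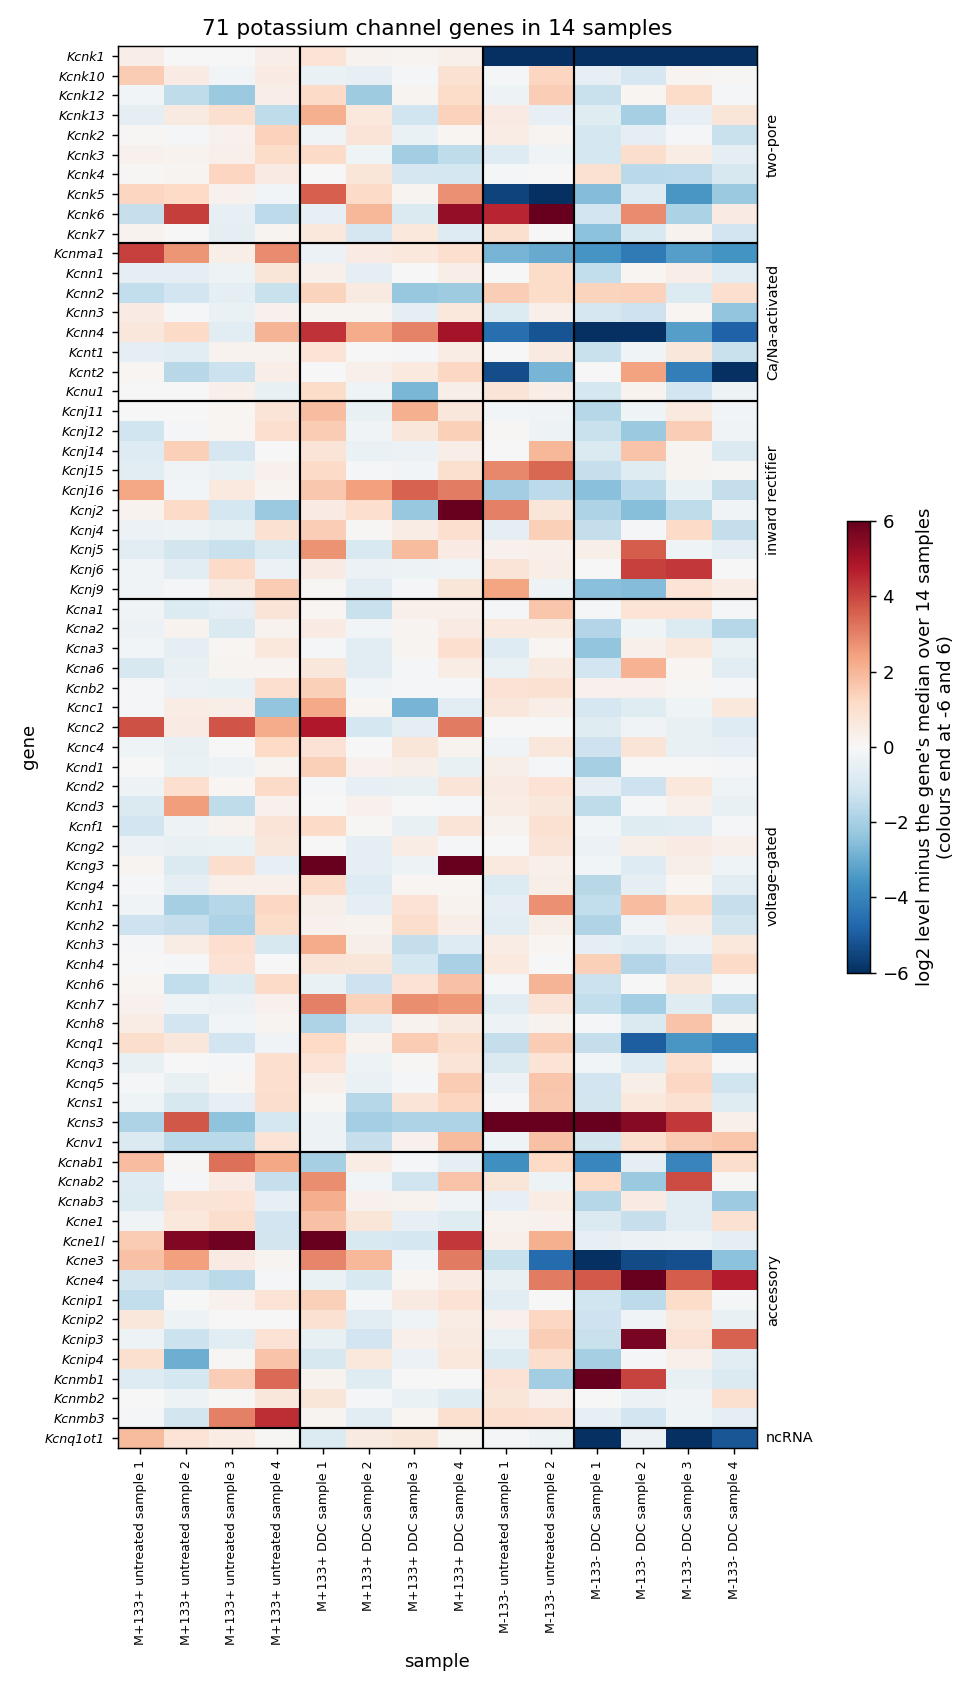
Levels of 71 of the 74 kept genes (rows, by channel class) in the 14 samples (columns, by group), as the log2 level minus the gene's median over all samples, with colours ending at -6 and 6. Kcnk1, Kcnk5 and Kcnn4 are blue in all 6 M-133- samples, Kcns3 is red in 5 of them, and most voltage-gated subunits are pale throughout.

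The largest sort difference among the 74 members, in both treatments, was that of Kcnk1. It encodes TWIK-1, a background channel subunit (probe at chr8:128554281-128554340, mm9). Its level was 2.72, 2.29, 2.33 and 2.73 in the M+133+ untreated samples and 3.11, 2.54, 2.49 and 2.62 in the M+133+ DDC samples. In M-133- cells it was -7.85 and -8.49 untreated and -8.33, -9.28, -6.58 and -8.64 after DDC, and none of those 7 arrays had it well above background. The 8 M+133+ samples lay close together and far above all others, and the M-133- values are bounds only. M+133+ cells exceeded M-133- cells by 10.69 on the log2 scale in untreated livers (SE 0.76, limma adjusted p = 2.09e-06) and by 10.90 after DDC (SE 0.62, adjusted p = 1.42e-07). Set against the dimmest signals that were well above background on each array, that is at least 358-fold and at least 552-fold higher.

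Kcnk5 encodes TASK-2, a K2P channel opened by alkaline pH and cell swelling (chr14:20961425-20961484, mm9). It was at 2.14, 2.03, 1.11 and 0.65 in M+133+ untreated cells and at 4.44, 1.99, 1.02 and 3.58 in M+133+ DDC cells. In M-133- cells it was at -4.74 and -6.18 untreated and at -1.78, 0.05, -2.66 and -1.39 after DDC. The groups of the 2 sorts did not overlap in either treatment, and all 4 M-133- DDC samples were brighter than both untreated ones. Kcnk5 was higher in M+133+ cells by 6.94 untreated (SE 0.97, limma adjusted p = 0.000471) and by 4.20 after DDC (SE 0.79, adjusted p = 0.00232). Within M-133- cells the DDC minus untreated difference of 4.01 (SE 0.97) did not pass (limma adjusted p = 0.0682). The bile duct marker mean there was -4.16 and -3.21 untreated and 0.19, -1.92, -1.26 and -0.04 after DDC, with 3 of 8 called higher. Within that list, Spp1 went from -6.29 and -2.79 to between 3.06 and 5.56, and Krt7 from -3.21 and -2.24 to between -3.41 and -2.59. The stellate list mean was 0.65 and 0.85 untreated and 3.28 to 4.54 after DDC, with 2 of 8 called higher. The part of either list in the Kcnk5 result was not tested. A second Kcnk5 probe gave 4.43 and 2.04 for the sort and 1.79 for DDC in M-133- cells.

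Kcnk6, which encodes TWIK-2, varied widely within groups. It was at -6.62, -1.09, -5.70 and -6.78 in M+133+ untreated, at -0.66 and 2.83 in M-133- untreated, at -5.72, -3.25, -6.09 and 0.04 in M+133+ DDC and at -6.38, -2.37, -7.10 and -4.74 in M-133- DDC cells. The untreated groups did not overlap, but the difference of -6.13 (SE 1.92) did not pass (limma adjusted p = 0.0627). It passed with slide as a block (-8.69, adjusted p = 0.0353), with normexp (-3.97, adjusted p = 0.0419) and without M+133+ untreated sample 2 (-7.45, adjusted p = 0.0198). The remaining 7 K2P members (Kcnk2, Kcnk3, Kcnk4, Kcnk7, Kcnk10, Kcnk12 and Kcnk13) passed no test. By their brightest probes the sort differences were -1.45 to 0.94 untreated and -0.65 to 1.36 after DDC. A second Kcnk3 probe gave -1.73 and 0.35, against 0.94 and -0.65 by the brightest. For Kcnk7 a second probe gave 1.26 and 2.78, against -0.57 and 0.95.

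**Figure D2:**
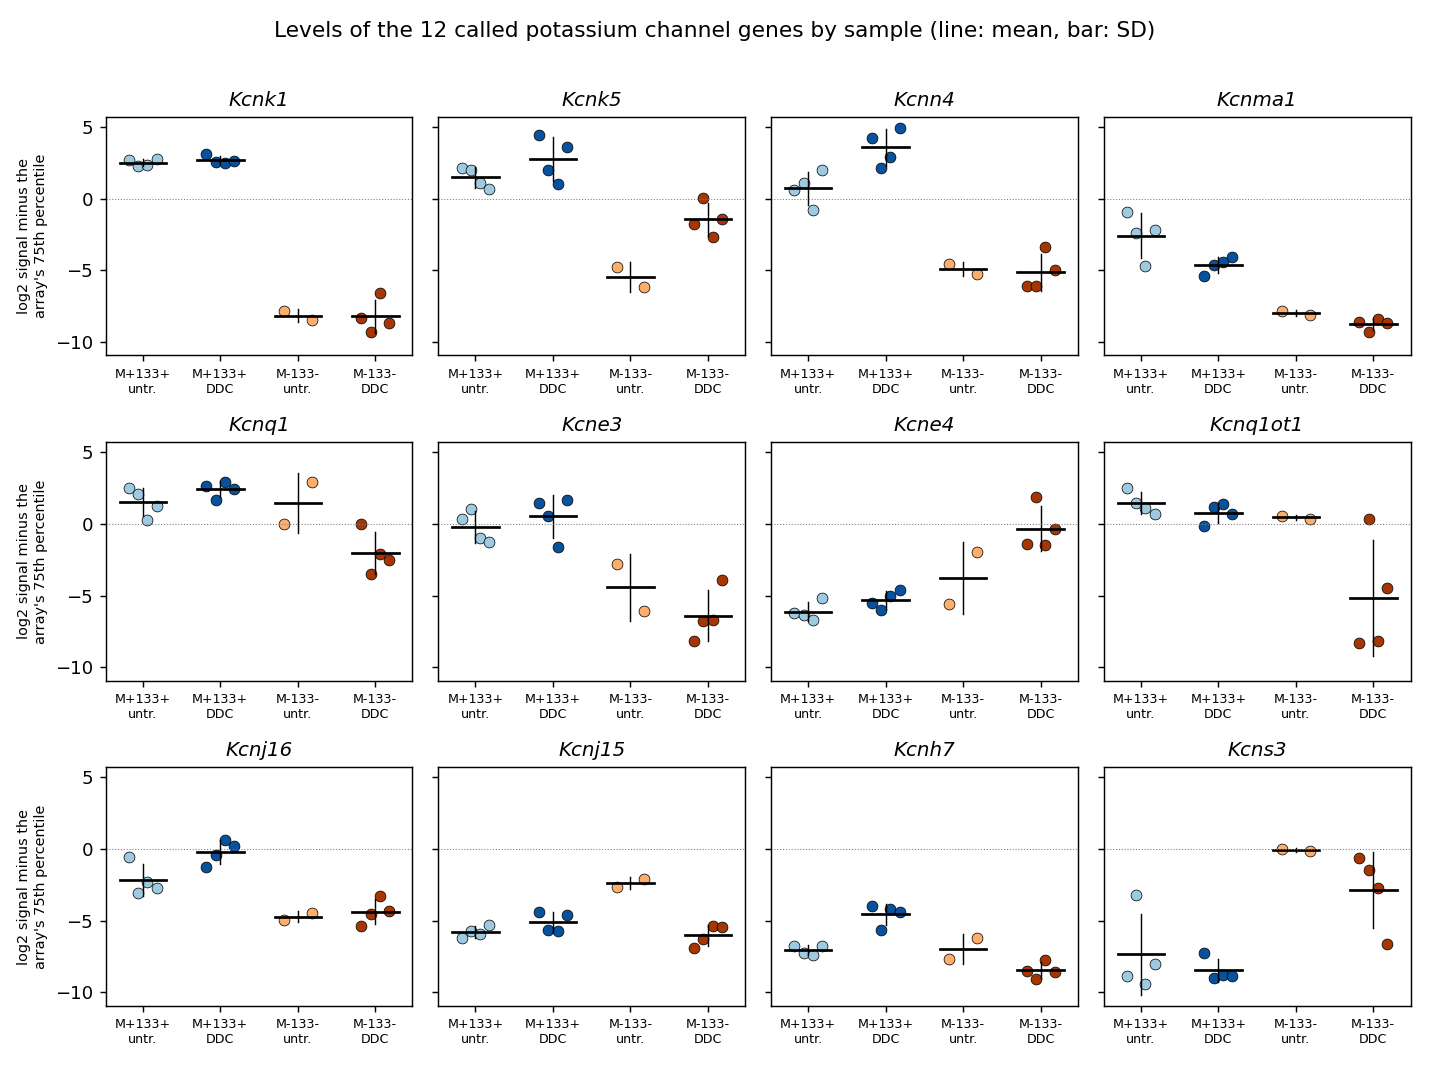
Log2 level of the 12 genes that passed a test, 1 panel a gene, in the 4 groups (points are samples, lines the group mean, bars the SD). The M+133+ and M-133- points are far apart for Kcnk1, while those of Kcnq1 overlap in untreated and not in DDC livers.

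Among calcium-activated channels, Kcnn4 and Kcnma1 were higher in M+133+ cells in both treatments. Kcnn4 encodes the intermediate-conductance channel that carries basolateral potassium in many secretory epithelia (chr7:25169184-25169782, mm9, a span longer than the probe). It was at 0.63, 1.07, -0.76 and 1.98 in M+133+ untreated and at 4.26, 2.16, 2.90 and 4.94 in M+133+ DDC cells. M-133- cells had -4.59 and -5.26 untreated and -6.11, -6.12, -3.38 and -4.94 after DDC. No M+133+ sample came near an M-133- sample, and all 4 M+133+ DDC samples were brighter than all 4 untreated ones. The difference between sorts was 5.66 untreated (SE 1.01, limma adjusted p = 0.00254) and 8.70 after DDC (SE 0.82, adjusted p = 9.42e-06). The DDC difference in M+133+ cells, 2.83 (SE 0.82), did not pass (adjusted p = 0.182), and nor did the interaction of 3.05 (SE 1.30, adjusted p = 0.451).

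Kcnma1 encodes the pore of the large-conductance calcium- and voltage-activated BK channel (chr14:24130916-24130975, mm9). It was at -0.95, -2.40, -4.72 and -2.22 in M+133+ untreated and at -5.42, -4.60, -4.42 and -4.08 in M+133+ DDC cells. M-133- cells had -7.84 and -8.11, and after DDC -8.61, -9.29, -8.36 and -8.65, with no array well above background. The sorts did not overlap, by 5.40 untreated (SE 0.92, limma adjusted p = 0.00184, at least 10.5-fold) and by 4.10 after DDC (SE 0.75, adjusted p = 0.00184, at least 3.46-fold). With normexp background correction the differences were 1.24 and 1.18 and neither passed (adjusted p = 0.289 and 0.2). The DDC difference in M+133+ cells was -2.05 (SE 0.75, adjusted p = 0.266).

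The BK channel's own accessory subunits did not pass a test between the sorts. Kcnmb1, a beta subunit typical of smooth muscle, was at -0.13, -2.19, -6.67 and -7.10 in the M-133- DDC samples, of which 2 lay above and 1 below the range of M+133+ DDC cells (-6.97 to -6.03). Kcnmb2 differed by -0.41 and -0.24 and Kcnmb3 by 0.57 and 0.77, untreated and after DDC. Lrrc26, a gamma subunit that lets BK channels open at resting voltage and calcium, belongs to a list of other potassium-handling genes and was higher in M+133+ cells after DDC by 6.18 (SE 1.03, limma adjusted p = 0.000938), with 1.85 untreated (SE 1.26, adjusted p = 0.5).

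Of the other calcium- or sodium-activated genes, Kcnt2 (a sodium-activated pore subunit) was at -0.72 to 1.36 in M+133+ untreated and -4.34 and -1.83 in M-133- untreated cells, and in M-133- DDC cells at 0.95, 3.36, -3.21 and -8.64. Its sort differences of 3.43 (SE 2.20) and 3.37 (SE 1.80) did not pass. Kcnn2, a small-conductance channel, differed by -2.41 untreated by its brightest probe and did not pass (limma adjusted p = 0.212). Its other probe, which stood for the gene under a stricter filter, gave -5.80 and passed (adjusted p = 0.00415), a fitted value, as no M+133+ untreated sample had that probe well above background. Kcnn2 also passed there with quantile normalization (-5.38), normexp (-2.52) and the mean of its probes (-4.11). Kcnn1, Kcnn3, Kcnt1 and Kcnu1 differed by -0.73 to 0.30 untreated and by 0.19 to 1.24 after DDC, and none passed. A second kept Kcnt1 probe gave 0.80 and 2.11, against -0.46 and 0.85 by the brightest.

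Kcnq1 and its small Kcne partners formed the next group. Kcnq1 encodes a voltage-gated pore subunit whose gating depends on which Kcne subunit joins it (chr7:150612740-150612799, mm9). It was at 2.49, 2.10, 0.29 and 1.21 in M+133+ untreated and at 2.60, 1.63, 2.92 and 2.46 in M+133+ DDC cells. M-133- cells had -0.01 and 2.93 untreated and 0.01, -3.53, -2.09 and -2.51 after DDC. The sorts overlapped in untreated livers (difference 0.06, SE 0.98, limma adjusted p = 0.986) and did not after DDC (4.44, SE 0.80, adjusted p = 0.00171). The 2.93 of M-133- untreated sample 2 is the mean of 2 arrays at 1.37 and 4.49. The change between treatments within M-133- cells was -3.49 (SE 0.98, adjusted p = 0.121) and the interaction 4.38 (SE 1.27, adjusted p = 0.219), so a difference of the sort contrast between treatments was not shown.

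Kcne3 encodes the subunit that holds Kcnq1 channels open in colon and airway epithelium (chr7:107333062-107333121, mm9). It was at 0.33, 1.04, -0.97 and -1.27 in M+133+ untreated and at 1.47, 0.53, -1.61 and 1.69 in M+133+ DDC cells. M-133- cells had -2.77 and -6.06 untreated and -8.16, -6.79, -6.72 and -3.92 after DDC. The sorts did not overlap in either treatment, and Kcne3 was higher in M+133+ cells after DDC by 6.92 (SE 1.05, limma adjusted p = 0.000455). The untreated difference was 4.20 (SE 1.28, adjusted p = 0.0556), and a second probe gave 5.56 and 8.25.

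Kcne4, whose product suppresses Kcnq1 current, ran the other way (chr1:78815838-78815897, mm9). It was at -6.19, -6.39, -6.73 and -5.20 in M+133+ untreated and at -5.51, -6.03, -5.00 and -4.61 in M+133+ DDC cells, against -5.56 and -2.0 in M-133- untreated and -1.44, 1.86, -1.47 and -0.37 in M-133- DDC cells. Kcne4 was lower in M+133+ cells after DDC by 4.93 on the log2 scale (-4.93, SE 0.89, limma adjusted p = 0.00174), with -2.35 untreated (SE 1.09, adjusted p = 0.252). In M-133- cells the DDC minus untreated difference was 3.43 (SE 1.09, limma adjusted p = 0.176). The mean of the 8 stellate cell, fibroblast and pericyte markers there was 0.65 and 0.85 untreated and 3.28 to 4.54 after DDC, with 2 of 8 called higher. The bile duct marker mean there was -4.16 and -3.21 untreated and -1.92 to 0.19 after DDC, with 3 of 8 called higher. The part of either list in the Kcne4 result was not tested. The 2 arrays of M-133- untreated sample 2 gave Kcne4 at -3.54 and -0.46.

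The cardiac and inner ear subunit Kcne1 differed by -0.16 and 0.84, untreated and after DDC, and passed no test. Kcne1l had sort differences of 1.73 (SE 2.36) and 3.19 (SE 1.93), with M+133+ DDC samples at 1.03, -8.68, -8.79 and -3.52. Kcnq3 and Kcnq5 differed by 0.13 and -0.50 untreated and by 0.32 and 0.52 after DDC, and passed no test.

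Kcnq1ot1 is a noncoding transcript read antisense to Kcnq1 from within that gene (chr7:150463034-150463093, mm9). It was at 2.51, 1.47, 1.07 and 0.70 in M+133+ untreated, -0.17, 1.16, 1.36 and 0.70 in M+133+ DDC, and 0.56 and 0.32 in M-133- untreated cells. The M-133- DDC samples were at -8.32, 0.30, -8.16 and -4.49, so 1 of them overlapped the M+133+ DDC group and 3 stood far below. The sort difference after DDC was 5.93 (SE 1.41, limma adjusted p = 0.0108), and the 5 other probes of the transcript gave 0.76 to 4.82. Without M-133- DDC sample 2 the DDC difference in M-133- cells was -7.43 (adjusted p = 0.00363), against -5.61 with it (adjusted p = 0.159). The labels do not say that labelling kept the strand, so unspliced Kcnq1 RNA cannot be told apart from this transcript.

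**Figure D3:**
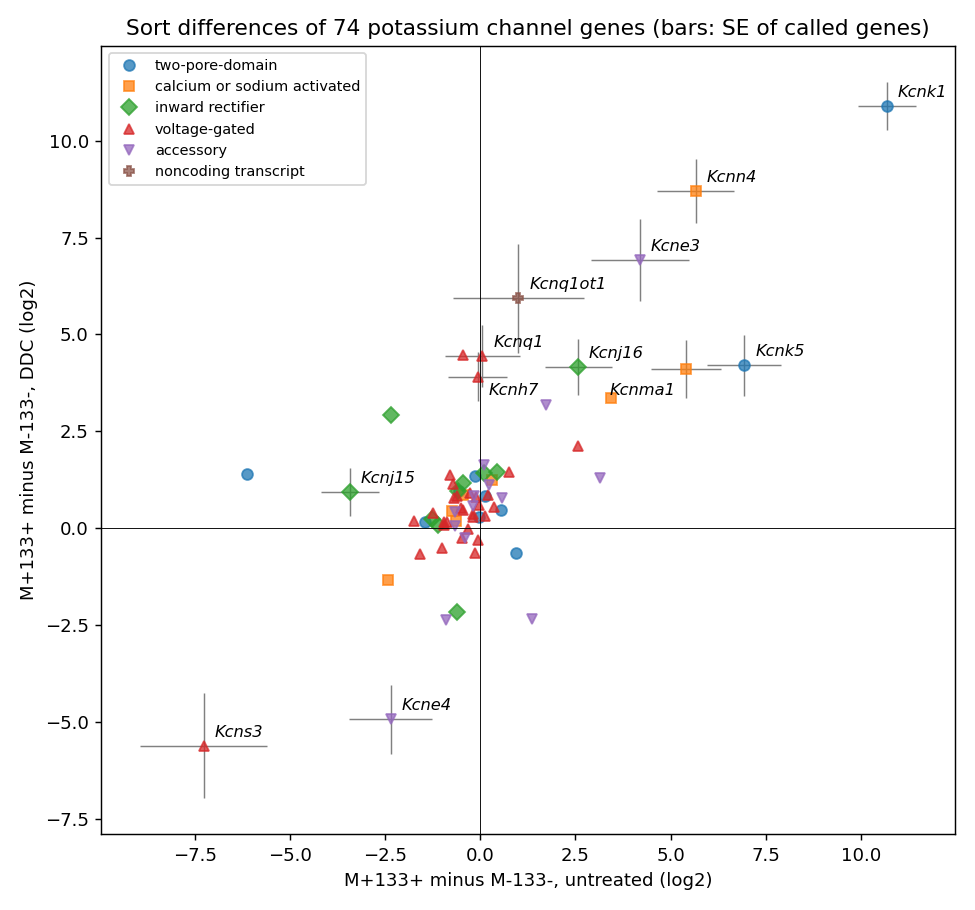
Log2 difference between M+133+ and M-133- cells for the 74 kept genes, untreated (horizontal) against DDC (vertical), with symbols for channel classes and SE bars on the 12 genes that passed a test. Kcnk1 stands alone at upper right (10.69 and 10.90, fitted values against groups not well above background) and Kcns3 and Kcne4 at lower left, and both axes rest on different samples.

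Of the inward rectifiers, which pass potassium more easily into than out of the cell, Kcnj16 was higher in M+133+ cells after DDC. It encodes Kir5.1, which works only together with Kcnj10 or Kcnj15 subunits (chr11:110887904-110887963, mm9). It was at -0.57, -3.06, -2.29 and -2.70 in M+133+ untreated and at -1.25, -0.40, 0.64 and 0.20 in M+133+ DDC cells. M-133- cells had -4.97 and -4.46 untreated and -5.40, -4.50, -3.28 and -4.32 after DDC. The sorts did not overlap in either treatment, with a difference of 4.17 after DDC (SE 0.72, limma adjusted p = 0.00119) and of 2.57 untreated (SE 0.88, adjusted p = 0.0926). The 2 other probes gave 3.44 and 5.80 after DDC but -1.52 and 4.02 untreated, so the untreated direction depended on the probe.

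Kcnj15, the Kir4.2 subunit, was highest in M-133- untreated cells (chr16:95518884-95518943, mm9). It was at -2.67 and -2.08 there, against -6.20, -5.74, -5.94 and -5.28 in M+133+ untreated, -4.37, -5.62, -5.72 and -4.58 in M+133+ DDC and -6.91, -6.28, -5.39 and -5.45 in M-133- DDC cells. Both M-133- untreated samples stood above all 12 others. In untreated livers Kcnj15 was lower in M+133+ cells (-3.42, SE 0.76, limma adjusted p = 0.0103). It was also the single member that passed a DDC test, being lower with DDC in M-133- cells (-3.63, SE 0.76, adjusted p = 0.0345). In the same cells the mean of the 8 endothelial markers was 4.96 and 4.73 untreated and 0.46 to 3.40 after DDC, with 0 of 8 called lower, beside the stellate marker means given above, and the part of either in the Kcnj15 result was not tested. Both calls rest on the 2 untreated M-133- samples: without either one the sort difference was -3.71 or -3.12 and no longer passed, and the DDC call ended under 12 of 26 alternatives (adjusted p 0.0179 to 0.231). The interaction was 4.35 (SE 0.98, adjusted p = 0.0983), and a second probe gave -5.44 for the untreated sort and -4.68 for DDC in M-133- cells.

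Kcnj16 and Kcnj2 are neighbours on chromosome 11, with probes 48.3 kb apart. Kcnj2, the classical strong rectifier Kir2.1, was at -8.95 to -5.55 in M+133+ untreated and -3.70 and -6.01 in M-133- untreated cells, and at -6.24, -5.72, -8.99 and -0.34 in M+133+ DDC cells. Its differences of -2.34 and 2.92 did not pass. Kcnj10, the other known partner of Kcnj16, was not kept. Kcnj4, Kcnj5, Kcnj6, Kcnj9, Kcnj11, Kcnj12 and Kcnj14 differed by -1.26 to 0.43 untreated and by -2.17 to 1.44 after DDC, and passed no test. Kcnj11, the pore of ATP-sensitive channels, differed by 0.43 and 1.44.

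Among the voltage-gated pore subunits other than Kcnq1, 2 of 30 passed a test. Of all 31, with Kcnq1, 3.23% passed between the sorts in untreated livers, against 8.79% of all genes. After DDC 9.68% passed, against 12.9% of all genes. Kcns3 encodes Kv9.3, a subunit that forms no channel alone and alters those of other voltage-gated subunits (chr12:11097716-11097775, mm9). It was at -0.00 and -0.17 in M-133- untreated and at -0.61, -1.47, -2.69 and -6.63 in M-133- DDC cells. M+133+ cells had -8.82, -3.20, -9.38 and -8.00 untreated and -7.26, -8.98, -8.79 and -8.82 after DDC. The sorts did not overlap in untreated livers, where M+133+ cells were lower (-7.26, SE 1.67, limma adjusted p = 0.0128). After DDC, with no M+133+ array well above background, M+133+ cells were at least 12.1-fold lower (-5.61, SE 1.36, adjusted p = 0.0124). M-133- DDC sample 4 (-6.63) also lay below its array's dimmest signal well above background (-6.34). Its order against the M+133+ DDC samples was therefore not measured. Without either of the M-133- untreated samples the untreated call ended (adjusted p up to 0.111). M+133+ untreated sample 2 was the brightest of its group for Kcns3, and its stellate marker mean (-1.30) was also the highest of the group, whose other samples had -3.09 to -1.93. That sample also had the group's highest bile duct (4.33), endothelial (-0.11), neutrophil (-2.17) and erythroid and platelet (-3.04) marker means. Its hepatocyte mean (-1.92), among others, was not the highest. The part of any of these in the Kcns3 value was not tested.

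Kcnh7 encodes Erg3, a relative of the cardiac Kcnh2 channel (chr2:62574171-62574230, mm9). It was at -3.98, -5.64, -4.19 and -4.39 in M+133+ DDC cells, at -6.73, -7.26, -7.36 and -6.74 in M+133+ untreated, at -7.69 and -6.21 in M-133- untreated and at -8.49, -9.06, -7.71 and -8.56 in M-133- DDC cells. The M+133+ DDC samples stood above all others, and it was through them alone that the gene was kept. The sort difference after DDC, which sets that group against another, was 3.91 (SE 0.63, limma adjusted p = 0.000784, at least 3.66-fold) and is given as a description. With normexp background correction it was 1.1 and did not pass. Against M+133+ untreated cells, of which no array had Kcnh7 well above background, the level in M+133+ DDC cells was at a ratio of at least 4.72-fold, a difference that did not pass (adjusted p = 0.134). A second probe was not kept.

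The other 28 voltage-gated subunits passed no test. The delayed rectifiers and A-type subunits (Kcna1, Kcna2, Kcna3, Kcna6, Kcnb2, Kcnc1, Kcnc2, Kcnc4, Kcnd1, Kcnd2 and Kcnd3) had sort differences of -1.0 to 2.58 untreated and -0.52 to 2.13 after DDC. In untreated livers a second kept probe had the other direction for Kcnc1 (0.31 against -0.94) and Kcnd2 (0.58 against -0.18). The modifier subunits Kcnf1, Kcng2, Kcng3, Kcng4, Kcns1 and Kcnv1 had -1.58 to 0.21 and -0.66 to 4.47. The largest of these was Kcng3, at 1.39 and -0.15 in M+133+ DDC samples 1 and 4 and at -9.18 to -7.26 in the 12 other samples. The ether-à-go-go relatives Kcnh1, Kcnh2, Kcnh3, Kcnh4, Kcnh6 and Kcnh8 had -1.75 to -0.07 and -0.63 to 1.14. A second Kcnh3 probe gave 0.65 and 1.27, against -0.20 and 0.36 by the brightest.

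The accessory subunits that act inside the cell passed no test. Kcnab1, Kcnab2 and Kcnab3, beta subunits of Kcna channels, differed by 3.14, -0.65 and 0.10 untreated and by 1.30, 0.05 and 1.63 after DDC. A second Kcnab1 probe gave 4.49 untreated and 1.71 after DDC. With the mean of the gene's probes, Kcnab1 passed in untreated livers (3.82, limma adjusted p = 0.0343). Kcnip1, Kcnip2, Kcnip3 and Kcnip4, calcium-binding partners of Kcnd channels, differed by -0.89 to 0.24 and -2.37 to 1.12. A second Kcnip4 probe gave 0.73 and -0.32, against -0.18 and 0.58 by the brightest.

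Arrays lay on 5 slides, and no slide held DDC samples of both sorts, so the sort difference after DDC has no value within a slide. With slide as a block, 7 members (9.46%) passed in untreated livers, where 6.16% of all genes passed, and 6 (8.11%) after DDC, where 4.91% of all genes passed. After DDC the calls of Kcnma1 (4.37, limma adjusted p = 0.0519), Kcns3 (-6.77, adjusted p = 0.0504), Kcnq1ot1 (6.50, adjusted p = 0.0958), Kcnh7 (2.76, adjusted p = 0.167) and Kcnq1 (3.50, adjusted p = 0.189) ended. Slides 2 and 4 held both sorts of untreated cells, but their M-133- arrays are the 2 arrays of M-133- untreated sample 2, so both values below rest on that 1 sample. Within these slides the difference was 12.10 and 10.31 for Kcnk1, 7.49 and 7.82 for Kcnk5, 8.24 and 4.60 for Kcnma1, 6.02 and 6.23 for Kcnn4, -8.50 and -8.05 for Kcns3 and -5.10 and -2.03 for Kcnj15, those of Kcnk1 and Kcnma1 being set against signals not well above background. Within slides 1 and 2 the DDC difference of Kcnj15 in M-133- cells was -4.24 and -4.93.

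Few potassium channel genes passed a test of DDC against untreated. In M+133+ cells 0 of 74 members passed in limma, where 0.24% of all genes were called, and 5 members, against 12.5% of all genes, had an unadjusted p under 0.05 (Kcnh7, Kcnn4, Kcnma1, Kcnj16 and Kcng3). In M-133- cells Kcnj15 alone passed, where 1.02% of all genes were called, and 7 had an unadjusted p under 0.05, against 12.8% of all genes. The interaction of sort and DDC passed for 0 members where 0.257% of all genes were called, and 9 had an unadjusted p under 0.05, against 9.99% of all genes. The comparisons share samples, so their values stand side by side. For M+133+ and then M-133- cells the DDC difference was 0.88 and -3.49 for Kcnq1, 0.74 and -1.98 for Kcne3, and 1.95 and 0.34 for Kcnj16. Kcnk1 differed by 0.17 in M+133+ cells, and in M-133- cells, where no array of either treatment had it well above background, no difference could be measured.

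**Figure D4:**
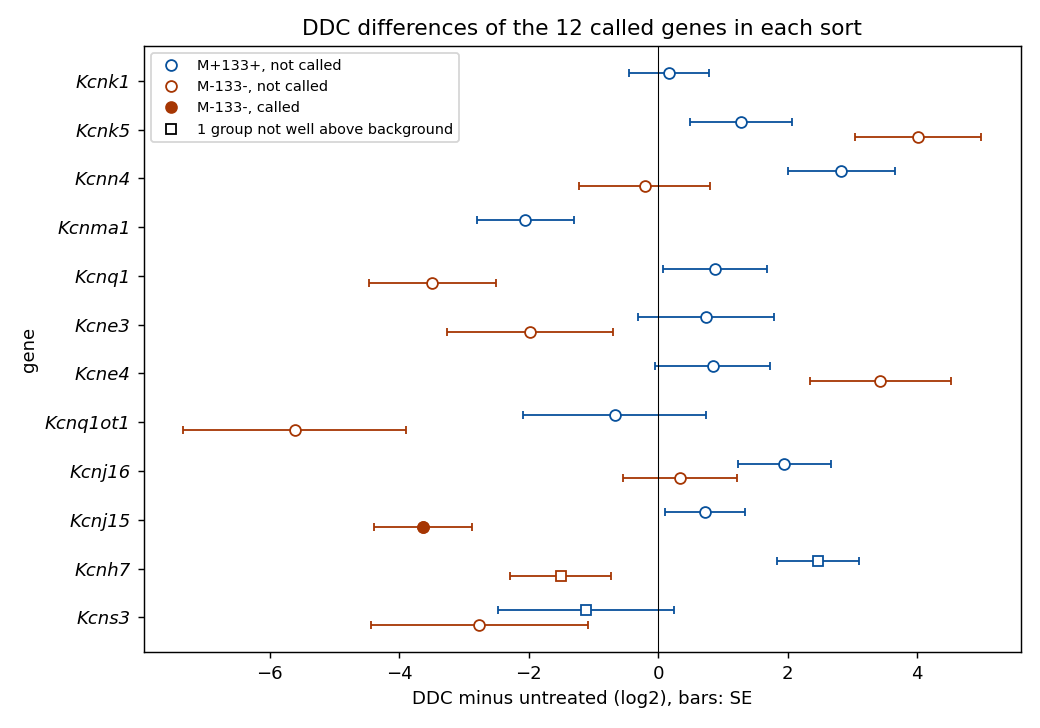
Log2 difference between DDC and untreated samples for the 12 genes that passed a test, in M+133+ (blue) and M-133- cells (brown), with SE bars filled points where the DDC test passed and squares where 1 of the groups was not well above background on any array. The Kcnj15 difference in M-133- cells (-3.63) is the filled point, and Kcnk1 and Kcnma1 have no point in M-133- cells, where neither group was well above background.

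A list of 42 other genes that move potassium or work beside these channels (pumps and their regulators, cotransporters, sulfonylurea receptor subunits, further accessory subunits, other potassium-permeable channels and the apical chloride channels) had 41 tested. In untreated livers 5 were higher and 2 lower in M+133+ cells (17.1% against 8.79% of all genes), and after DDC 9 were higher and 3 lower (29.3% against 12.9%). The list was chosen with earlier results of these data known, so these shares are given as a description. The median differences were 0.03 and 0.65, against -0.07 and 0.31 over all genes. The sodium pump, which loads cells with potassium, was represented by Atp1b1 (higher by 3.95, SE 0.54, and 3.35, SE 0.44), while Atp1b3 was lower in untreated livers (-1.59, SE 0.33). Its regulators split, Fxyd3 being higher by 8.82 and 8.75, Fxyd4 by 2.54 after DDC, and Fxyd5 lower (-5.38 and -2.34). The chloride channels Cftr (4.45 and 3.99) and Ano1 (9.59 and 5.53) were higher in M+133+ cells in both treatments.

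After DDC the cotransporters Slc12a2 (4.13), which brings sodium, potassium and chloride into the cell, and Slc12a7 (3.89), which lets potassium and chloride out, were also higher in M+133+ cells. Abcc9, the sulfonylurea receptor subunit known from pericytes and vascular muscle, was lower after DDC (-10.12, SE 1.36, limma adjusted p = 0.000167), and Fxyd1 was lower too (-7.10). Within M-133- cells Ano1 was the single list member called, being higher with DDC by 5.16 (SE 0.81). In those samples the bile duct and the stellate marker means were both above those of untreated M-133- samples. The part of either in the Ano1 result was not tested.

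The authors' deposited table of fold changes covered all 18 pairs of gene and comparison called here. In the authors' deposited table the direction was the same in all 17 pairs for which a fold was given, and the false discovery rate was under 5% in 16 of 18. The exceptions in the authors' deposited table were Kcnq1ot1 for the sorts after DDC (6.56%) and Kcnj15 for DDC in M-133- cells (18.4%). That table was made from the same arrays and is no independent check.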

How the data were processed

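Total RNA of sorted mouse liver cells was measured on 16 one-colour Agilent arrays of 14 samples. Amplification to cDNA and labelling with Cy3 followed, per the labels. Per the file headers, Agilent Feature Extraction 10.5.1.1 made the deposited intensity of each spot, the processed signal, by subtracting a local background and removing spatial trends, and set its flags. Probe positions are those of mm9 in the deposited files. A deposited table by the authors gives signed fold changes and false discovery rates in percent, each a score per comparison whose making is not given in the sources used here. The submitters' processing notes name limma.

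The log2 processed signal had its array's 75th percentile subtracted. Outlier spots were left out, and repeat spots, then the 2 arrays of each sample hybridised again (sample 1 of M+133+ untreated, sample 2 of M-133- untreated), were averaged. Probes flagged well above background in 0.5 or more of a group's samples were kept, and the brightest kept probe stood for its gene. Of 41174 probes, 32831 were named through a RefSeq table (GRCm38.p6), and members by the array files' own symbols. Tests used limma 3.58.1 (R 4.3.3) over all 14 samples with an intensity trend, two-sided, and Benjamini-Hochberg adjustment over 23309 genes. Passing a test means an adjusted p under 0.05, and SE is the moderated standard error. For a group in which no array detected a gene above background, the fold is given as "at least", against the dimmest signal so flagged on each array. The script was tested on simulated data.

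The members, the list of potassium-handling genes, the markers and the tests were chosen with earlier results of these data known. Genes that passed a test are given sample by sample, and the others by class. Some members and list genes are included in the counts and means and are not reported singly here. Alternatives were quantile normalization, normexp background correction with offset 50, other filters, probe and name rules, slide and number blocks, no trend, fewer samples and single repeat arrays. Precision is limited by the number of arrays, since M-133- untreated cells had 2 samples.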

Additional observations from a re-analysis of the deposited data

Results flagged for a closer look

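Kcns3 in M+133+ DDC sample 1 stood apart from its group, at -7.26 against -8.98 to -8.79 in the 3 other samples. The gap to the nearest sample was 0.888 of the group's range, past the 95% critical value of Dixon's test. In all, 36 groups of 4 samples were looked at in this way, for the 12 genes that passed a test, and chance alone marks about 1 in 20 groups. No M+133+ DDC array had Kcns3 well above background, so all 4 values lie at the dim end of the array. That array also had the lowest 75th percentile of the group (930.9 intensity units against 2036.9 to 2411.3), and its dimmest signal well above background lay at -5.84 against -6.74 to -6.50 on the others, and the part of this in the value was not tested. The values have no order as measurements of Kcns3.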

How the results depend on the processing

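The 27 alternative fits, of which 14 left out 1 sample each, reversed none of the 18 calls of a gene. Members called after DDC between the sorts numbered 6 with slide as a fixed block. Members called for DDC in M-133- cells numbered 0 with slide as a fixed block and with only the 2 groups compared, and 0 to 1 when samples were left out in turn, with the call ended without M+133+ untreated sample 1, 2 or 3, M-133- untreated sample 1 or 2, or M-133- DDC sample 1 or 2. With quantile normalization or the second repeat array only, the 1 member called there was Kcnk5 (4.44 and 4.51, higher with DDC) in place of Kcnj15. Without M-133- DDC sample 2 it was Kcnq1ot1 (-7.43, lower with DDC) in place of Kcnj15. Counts of 0 for DDC in M+133+ cells and for the interaction were 0 under every alternative run. With quantile normalization 9 of 12 member calls after DDC were higher (75%), against 9 of 11 (81.8%) in the fit reported. Among all genes the calls were 1212 higher and 1488 lower, against 1502 and 1510. In untreated livers 5 of 9 member calls were higher (55.6%), against 4 of 6 (66.7%). All genes there had 1060 higher and 1074 lower, against 847 and 1203. Normexp background correction gave 50% in untreated livers, with 529 higher and 1239 lower among all genes. It moved the median of all genes there from -0.07 to -0.52. Quantile normalization moved that median from 0.31 to -0.05 after DDC and from -0.36 to 0.07 for DDC in M-133- cells. Kcnk1 kept its calls in all 27 fits of each sort comparison, with differences of 6.03 to 11.60 untreated and 7.34 to 11.44 after DDC, the lowest with normexp. Members not called in the fit reported but called under at least 1 alternative were Kcne3, Kcnk6, Kcnn2 and Kcnab1 in the untreated sort comparison and Kcnn2, Kcnt2, Kcng3 and Kcnip3 in that after DDC. Where a call was lost, the cause was not tested.

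Same-numbered samples did not deviate together in every pair, with correlations across genes of -0.06 to 0.08 by replicate number and -0.01 to 0.11 by the number in the sample titles, so the numbers were not taken as pairs. With the replicate block, 0 members passed for DDC in M-133- cells, where Kcnj15 was at -3.86, and 7, 11, 0 and 0 passed in the other 4 comparisons. Of all genes 0.493% passed there, and 6.54%, 11.6%, 0.0858% and 0.103% in the others. With the number that opens the sample titles as a block, 4 members (5.41%, against 3.54% of all genes) passed in untreated livers, and Kcnma1 (5.14), Kcnn4 (4.86) and Kcnj15 (-3.70) did not. Kcnk6 passed in untreated livers with the replicate block (-5.72, adjusted p = 0.0397) and the title number as a block (-7.24, adjusted p = 0.0375). Signal over background limits what can be said of dim members: 57 of the 74 were well above background in every sample of at least 1 group.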
